A study of Homo sapiens with 56 samples.

Results

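The members described here are 39 rows of short RNAs in an RNA-seq table of 21596 rows: the rows annotated as snRNA (small nuclear RNA), snoRNA (small nucleolar RNA), scaRNA (small Cajal body RNA) or misc_RNA. They were chosen by their measured level, which had to reach at least 1 CPM (counts per 1000000) in 5 or more of the 56 libraries. The 4 classes held 82 rows, and the members were 13 of 36 misc_RNA rows, 11 of 20 snRNA rows, 10 of 21 snoRNA rows and 5 of 5 scaRNA rows. The levels are CPM after 15 mitochondrial rows were left out and each library was rescaled to 1000000. Just inside the rule lay SCARNA6 and SNORD15A, which held 1.11 and 1.24 CPM in the library that ranks 5 from the top, and just outside lay RN7SL674P with 0.947 CPM and RNVU1-31 with 0.892 CPM. Because the rule takes rows that are high in some libraries, counts over the members describe them and are not evidence of a difference. Leaving out JEKO-1, 25 of the 39 rows would have met the rule. Leaving out MINO-P it was 38, and leaving out MINO-VR or Z138 it was 39.

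The libraries were made from poly-A enriched RNA of 4 cultures of human mantle cell lymphoma, a B-cell lymphoma. JEKO-1 and MINO-P gave 15 libraries each, and Z138 and MINO-VR gave 13 each. Cells were untreated (CON, 5 libraries) or received IBR (11 libraries), BTZ (6), S63845 (6), CLF (6) or YM155 (4). Pairs of agents were IBR_CLF (8) and BTZ_CLF (4), BTZ_YM155 and IBR_YM155 (2 each), and BTZ_S63845 and IBR_S63845 (1 each), which made 37 groups of 1 to 3 libraries. The study's title names BIRC5 and MCL-1 as targets against drug resistance. YM155 is known as a small molecule that suppresses BIRC5, S63845 inhibits the MCL-1 protein, and the labels do not spell out CLF, P or VR. CON, CLF, BTZ and BTZ_CLF of MINO-P and MINO-VR (8 libraries) carry library names of an HK series, and the other 48 libraries belong to an MCL series, so for the MINO cultures the remaining treatments and their CON libraries cannot be told apart from the series. Nothing in the labels says that libraries of 1 group came from separate cultures, and p-values then measure only the spread between these libraries.

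These RNAs work mostly without a poly-A tail. 7SL RNA (RN7SL1, RN7SL2) is the scaffold of the signal recognition particle, which brings ribosomes that make secreted and membrane proteins to the endoplasmic reticulum. 7SK RNA (RN7SK) holds the elongation kinase P-TEFb inactive in the nucleus. U1, U2 and U4 are RNAs of the spliceosome, U3 (SNORD3 genes) and U8 (SNORD118) act in the processing of ribosomal RNA, and scaRNAs guide the modification of spliceosomal RNAs in Cajal bodies. Mature forms of these RNAs mostly end without the tail that poly-A enrichment selects, so their share of such a library is a measure of carry-over as well as of abundance, and which of these moved was not tested. In bulk samples, fewer cells of a type and less RNA per cell cannot be told apart.

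Sequences of 4 RNAs are printed here, 5′ to 3′ as DNA letters, from GENCODE release 29 on GRCh38, to show what these rows stand for. RN7SL1 and RN7SL2, which hold most of the pooled signal, are not printed. RN7SK lies on the plus strand at chr6:52995621-52995948 and is 328 bases long. Its first 300 bases follow, with GATC in capitals.
RN7SK: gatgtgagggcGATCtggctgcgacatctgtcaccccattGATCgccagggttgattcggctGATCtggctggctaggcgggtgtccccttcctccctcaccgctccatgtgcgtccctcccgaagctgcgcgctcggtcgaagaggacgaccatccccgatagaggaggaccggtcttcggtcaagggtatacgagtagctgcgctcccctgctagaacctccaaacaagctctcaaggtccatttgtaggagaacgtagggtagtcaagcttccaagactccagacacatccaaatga
GATC occurs 3 times in these 300 bases. It does not set the 7SK rows apart: over their whole length RN7SL1 and RN7SL2 hold 4 each and SCARNA2 holds 5. RN7SKP71 and RN7SKP90 hold 2 each. As a background, 5.88% of 192779 GENCODE transcripts hold 3 or more in their first 300 bases and 56.7% hold at least 1.

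SNORD3A, the main U3 row, lies on the plus strand at chr17:19188016-19188714. The 217-base transcript that starts there is shown with TGATGA and CTGA, the letters of C and D boxes, in capitals, followed by SNORD118 (U8), on the minus strand at chr17:8173454-8173587, marked alike.
SNORD3A: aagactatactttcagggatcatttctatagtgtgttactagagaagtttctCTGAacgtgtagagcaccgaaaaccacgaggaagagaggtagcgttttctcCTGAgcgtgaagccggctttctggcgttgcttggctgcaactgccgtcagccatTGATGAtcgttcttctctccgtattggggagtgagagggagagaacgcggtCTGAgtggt
SNORD118: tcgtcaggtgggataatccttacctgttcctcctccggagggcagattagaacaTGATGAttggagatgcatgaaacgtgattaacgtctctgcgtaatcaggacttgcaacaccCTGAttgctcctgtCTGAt
The table's SNORD3A row covers the whole annotated gene, so it can hold reads from beyond the 217 bases. TGATGA within the first 15 and CTGA within the last 15 bases occurred together in 6 of the 15 snoRNA and scaRNA members, against 0.0225% of 200133 GENCODE transcripts of at least 134 bases, and ACA at 3 bases from the end occurred in 2 of the 15. The 6 were SCARNA5, SCARNA6, SCARNA7, SCARNA10, SNORD15B and SNORD17. SNORD3A and SNORD118 are not among them, as their TGATGA lies beyond the first 15 bases, so the 0.0225% is no background for their marked letters.

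One U1 sequence stands for 8 rows: RNU1-1, RNU1-2, RNU1-3, RNU1-4, RNU1-27P, RNU1-28P, RNVU1-18 and RNVU1-29 are identical over 164 bases. It is printed at RNU1-2 (plus strand, chr1:16895980-16896143), with capitals on the letters that pair with a 5′ splice site and on the motif AATTTNTGG, the form of its binding site for Sm proteins.
RNU1-2: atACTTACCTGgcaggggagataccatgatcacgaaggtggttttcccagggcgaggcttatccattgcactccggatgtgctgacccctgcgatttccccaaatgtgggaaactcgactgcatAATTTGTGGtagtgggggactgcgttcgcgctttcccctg
AATTTNTGG was found in 8 of 8 U1 rows and in none of the other 3 snRNA rows, as against 0.261% of 199168 transcripts over their first 164 bases. Only the given strand of each transcript was searched for these motifs, and a match is a description of letters.

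All 39 members started at the base where GENCODE starts the gene. The RNA lengths were 134 to 438 bases, with a median of 265. GENCODE lists 943 snoRNA genes with a median of 121 bases, of which 28.4% are at least 134 bases long, and 1900 snRNA genes with a median of 107 bases, of which 15.2% are at least 134 bases long. The same share was 55.1% of 49 scaRNA genes and 57.9% of 2212 misc_RNA genes. The longest run of A in a member was 3 to 9 bases. What the authors did with reads that fit several copies is not given in the sources used here, so values of near-identical rows are uncertain one by one. Whether the counting used strand is not given either, and RN7SL1 lies opposite RPS29, a ribosomal protein gene. The row named 7SK (annotated misc_RNA) pools 7 gene identifiers, and its position and sequence here are those of the first. That gene lies at the locus of RN7SK (annotated snRNA) and was 99.1% identical to it. SNORD3A, SNORD3B-1, SNORD3B-2 and SNORD3C were 99.1% to 100% identical. The 6 RN7SKP pseudogene rows were 80.1% to 84.96% identical to RN7SK. The 39 rows therefore stand for fewer separate RNAs.

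The depth recovered from steps in the low values was 5.52 to 21.6 M reads (M, 1000000) per library, with a median of 16.0 M, and 3 reads were worth 0.145 to 2.18 rescaled CPM. Such floors cover counting error only. At least 10 recovered reads were present in 5 or more libraries for 33 of the 39 members and in at least 1 library for 39, and 6 of the 39 have a value of at least 1 CPM that was made of under 3 reads. The labelled cell type was checked on its markers: MS4A1 was present at 206 CPM or more and CCND1 at 207 CPM or more in each of the 56 libraries, while CD3E, a T cell marker, stayed at or under 0.743 CPM. Mitochondrial rows took 1.91% to 80.5% of the deposited CPM, and 6 libraries, all JEKO-1, were above 50%.

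The summed level of the 39 rows ranged from 0.828 CPM in Z138 CLF replicate 1 to 58238 CPM (5.82% of the library) in JEKO-1 BTZ_CLF replicate 1. The median over the 56 libraries was 620 CPM. The medians were 27184 CPM in JEKO-1, 1076 CPM in MINO-P, 395 CPM in MINO-VR and 79.97 CPM in Z138. The untreated libraries gave another order: 971 CPM in MINO-P, 898 CPM in MINO-VR, 152 CPM in JEKO-1, and 2.21 and 30.2 CPM in Z138. JEKO-1 was thus the highest culture through its treated libraries, while its CON library lay below those of MINO-P and MINO-VR. In 37 of the 39 members the highest library was a JEKO-1 library, 29 of them BTZ_CLF and 7 IBR_CLF. The exceptions were SNORD3B-1, highest in MINO-P IBR, and SNORD3C, highest in Z138 IBR.

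**Figure D1:**
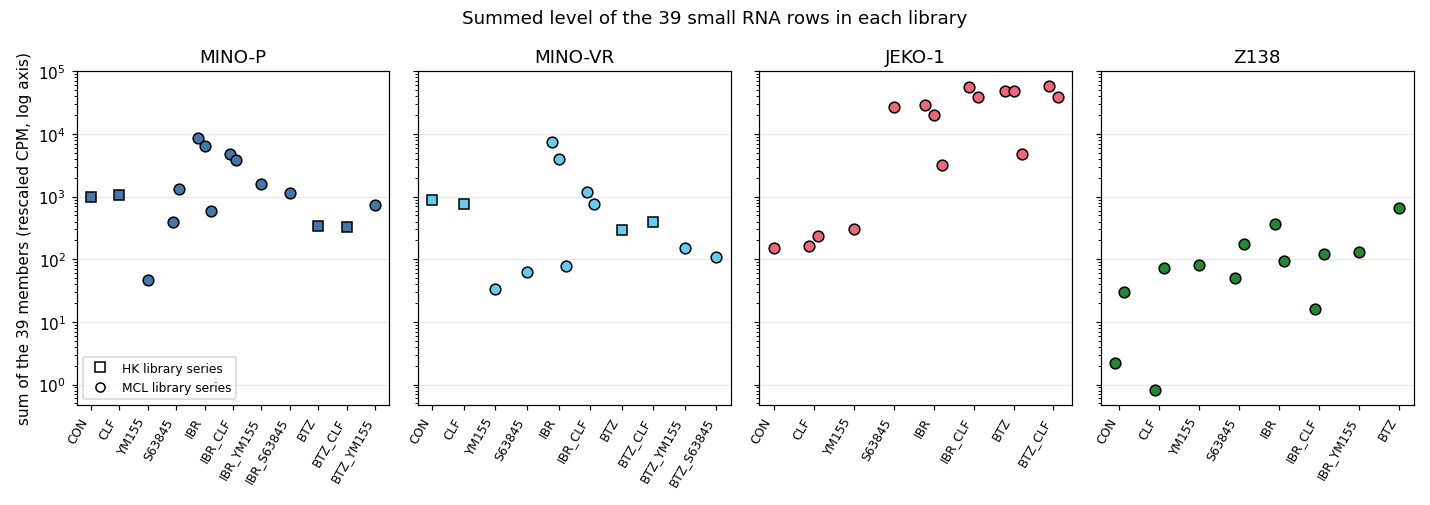
Each point is 1 library, and the y axis gives the summed rescaled CPM of the 39 members on a log scale, by treatment within each culture; squares are the HK and circles the MCL library series. In JEKO-1 the CON, CLF and YM155 libraries sit between 152 and 309 CPM and the other 11 between 3227 and 58238 CPM.

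Within JEKO-1 the libraries fell into a low and a high set along treatment. CON held 152 CPM, CLF 165 and 234 CPM, and YM155 309 CPM. IBR held 29159.9, 20386 and 3227 CPM, BTZ 48933, 48076 and 4827 CPM, and S63845 27184 CPM. With CLF added, IBR_CLF held 56930.0 and 38844 CPM and BTZ_CLF 58238 and 38804 CPM. No library of the second set overlapped the first, and replicate 3 of IBR and of BTZ stood 6.32 and 9.96 times below the middle ones. Their mitochondrial shares moved alongside: 1.91% in CON, 20.9%, 19.9% and 13.5% in IBR, 67.6%, 67.5% and 9.92% in BTZ, and 59.1% to 80.5% in the 4 CLF combinations. Its part in the result was not tested. JEKO-1 BTZ replicate 3 held 4827 CPM at a mitochondrial share of 9.92%, and 31 of its 39 rows were above the JEKO-1 CON library. In JEKO-1 CON 29 of the 39 rows were listed at 0, and in BTZ replicate 3 it was 8. The rule chose rows by their level in these libraries among others, so the 31 are a description.

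The MINO cultures and Z138 behaved in other ways. In the HK series, MINO-P held 971 CPM in CON, 1076 in CLF, 335 in BTZ and 330.1 in BTZ_CLF, and MINO-VR held 898, 749, 296 and 395 CPM, so both BTZ libraries were lower than CON. In the MCL series, IBR held 8622, 6370.4 and 592 CPM in MINO-P and 7412, 3977 and 78.2 CPM in MINO-VR. YM155 held 47.3 and 33.9 CPM, the lowest library of each MINO culture. Z138 held 2.21 and 30.2 CPM in CON, 362 and 92.7 in IBR, 649 in BTZ, 49.7 and 177 in S63845 and 79.97 in YM155. Every Z138 library was below the lowest treated JEKO-1 library outside CLF and YM155.

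**Figure D2:**
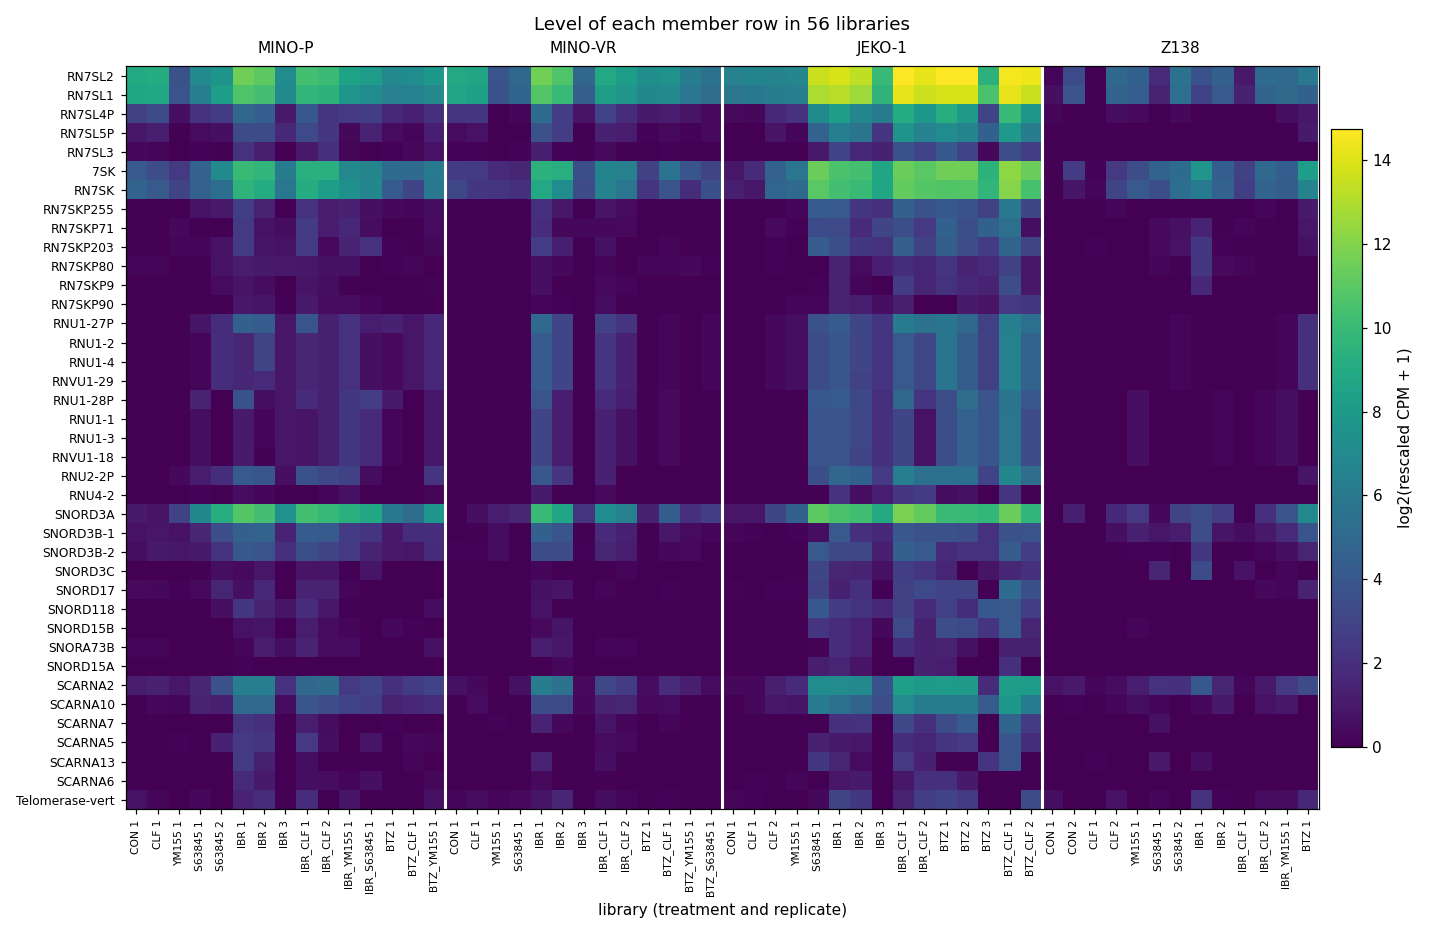
Rows are the 39 members grouped by family, columns are the 56 libraries ordered by culture and treatment, and colour gives log2(rescaled CPM + 1). In 37 of the 39 rows the highest library is a JEKO-1 library.

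7SL RNA made most of the signal. The 5 RN7SL rows held 79.0% of all members' CPM over the 56 libraries, and RN7SL1 with RN7SL2 77.9%. This pooled share is set by the high JEKO-1 libraries: the median over libraries was 67.4%, and Z138 IBR replicate 1 and Z138 BTZ held 5.27% and 13.03%. The label of small nuclear and nucleolar RNAs therefore does not cover the main part of the pooled signal, since 7SL works in the cytoplasm. In JEKO-1, RN7SL1 was 56.5 CPM in CON, 60.5 and 72.2 CPM in CLF and 77.4 CPM in YM155. It was 9245, 6263 and 762 CPM in IBR, 14697, 14689.9 and 1447 CPM in BTZ, and 7768 CPM in S63845. The JEKO-1 IBR, BTZ and S63845 libraries did not overlap the CON, CLF and YM155 libraries.

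In MINO-P RN7SL1 went the other way under BTZ: 406 CPM in CON, 466 in CLF, 85.6 in BTZ and 87.3 in BTZ_CLF. In MINO-VR it was 398, 333, 119 and 122 CPM in the same order. Each of these groups is 1 library of the HK series, so the ratios to CON of 0.211 (MINO-P) and 0.298 (MINO-VR) under BTZ have no replicate check. With IBR, RN7SL1 was 1672, 1296 and 125 CPM in MINO-P and 1810.5, 1032 and 21.5 CPM in MINO-VR, and replicate 3 lay below CON in both. In Z138, RN7SL1 was 0.523 and 12.8 CPM in CON, 6.67 and 16.4 CPM in IBR, and 23.0 CPM in BTZ, with 3 reads worth 0.195 CPM in the lower CON library. RN7SL2 followed RN7SL1 in level, at 0.0359 to 2.60 times its value in a library with a median of 1.42. RN7SL4P, a 7SL pseudogene row, reached 1006 CPM and RN7SL5P 241 CPM, whereas RN7SL3 stayed at or under 15.9 CPM.

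7SK RNA was low in untreated cells and high in the same treated libraries. The row named 7SK held 0.866 CPM in JEKO-1 CON, 2.46 and 24.4 CPM in CLF and 55.3 CPM in YM155. It held 1492, 1319.9 and 427 CPM in IBR, 2995, 2917 and 745 CPM in BTZ and 2660.2 CPM in S63845. In MINO-P it was 16.2 CPM in CON, 34.4 in BTZ, and 1036, 854 and 74.4 in IBR. In MINO-VR it was 5.26 CPM in CON, 6.60 in BTZ, and 727, 599 and 10.9 in IBR. Z138 held 0.0507 and 5.03 CPM in CON, the first below the value of 3 reads (0.195 CPM), 206 and 20.1 CPM in IBR, and 298 CPM in BTZ. In these 4 cultures the IBR libraries lay above the CON libraries of the same culture, without overlap, and for MINO this crosses the library series.

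RN7SK, the other row of this RNA, was 1.35 CPM in JEKO-1 CON, between 409 and 1319.0 CPM in IBR and between 846 and 1820.3 CPM in BTZ. In MINO-P it was 25.4 CPM in CON and 17.1 CPM in BTZ. The 7SK row, which pools 7 gene identifiers, was 0.640 to 6.33 times RN7SK in a library. The ratio was 0.640 in the CON libraries of JEKO-1, MINO-P and MINO-VR and in Z138 CON replicate 1, and 6.33 in Z138 CON replicate 2. How much of it came from the locus of RN7SK cannot be read from its value. The RN7SKP pseudogene rows were much lower, with RN7SKP255 up to 58.2 CPM and RN7SKP71 up to 43.1 CPM. RN7SKP9, RN7SKP80 and RN7SKP90 reached 10.2, 6.55 and 4.37 CPM.

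SNORD3A, the main U3 row, also differed between the cultures. It held 1.08 CPM in MINO-P CON, 0.705 in CLF, 61.0 in BTZ and 37.9 in BTZ_CLF, while RN7SL1 was lower in the same BTZ libraries than in CON. In MINO-VR the row was listed at 0 in CON, where 3 reads are worth 0.145 CPM, and was 0.541 in CLF, 1.60 in BTZ and 19.4 in BTZ_CLF. IBR gave 1832, 1302 and 176 CPM in MINO-P and 979.96, 407 and 3.78 CPM in MINO-VR. JEKO-1 held 0.844 CPM in CON, 1472, 1211 and 497 in IBR, 1065, 996 and 868 in BTZ, and 2141 in S63845. Replicate 3 of BTZ was close to the other 2 for SNORD3A, unlike for RN7SL1. Z138 held 1.36 CPM in one CON library and less than the value of 3 reads (0.195 CPM) in the other, 10.4 and 5.46 CPM in IBR and 126 CPM in BTZ.

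Among the other snoRNA rows the values were low. SNORD3B-1 reached 25.1 CPM, SNORD3B-2 21.9 CPM and SNORD3C 9.71 CPM. SNORD17, a box C/D RNA, reached 34.2 CPM, SNORD15B 16.7 CPM and SNORD118, the U8 RNA, 16.4 CPM. SNORD118 was 0 in JEKO-1 CON and 4.88, 3.47 and 2.10 CPM in IBR. SNORA73B, a box H/ACA RNA and the only SNORA member, stayed at or under 2.76 CPM and SNORD15A at or under 2.91 CPM.

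The spliceosomal rows were led by U1. The sum of the 8 identical U1 rows was 0 to 560 CPM, with a median of 3.05 CPM. On chromosome 1 their values depended on the strand of the row. RNU1-2, RNU1-4 and RNVU1-29, on the plus strand of chromosome 1, held equal values in 54 of 56 libraries, and RNU1-1, RNU1-3 and RNVU1-18, on its minus strand, also in 54 of 56, within 0.0001 CPM. Between the strands, RNU1-2 and RNU1-1 were equal in 19 libraries, 12 of them at 0, and RNU1-2 was the higher in 24 and the lower in 13. The mean over libraries was 6.27 CPM for the 4 plus-strand and 3.59 CPM for the 4 minus-strand rows. Rows with the same sequence thus carry different values, and how reads were assigned to them was not tested. RNU2-2P, a U2 row, reached 113 CPM and was 0 in JEKO-1 CON. RNU4-2, a U4 RNA, stayed at or under 4.95 CPM.

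SCARNA2 led the SCARNA rows, of which the table annotates SCARNA10 as snoRNA. It was 0.271 CPM in JEKO-1 CON, 140.2, 123 and 12.3 CPM in IBR, 277, 251 and 2.51 CPM in BTZ, and 321 and 242 CPM in IBR_CLF. Replicate 3 of BTZ in JEKO-1 was far below the other 2, whereas SNORD3A was close in the 3 libraries. SCARNA10 reached 231 CPM in JEKO-1 BTZ_CLF, and SCARNA7, SCARNA5, SCARNA13 and SCARNA6 reached 26.2, 14.6, 13.2 and 3.04 CPM. The row named Telomerase-vert, which overlaps TERC, the RNA template of telomerase, stayed at or under 9.87 CPM.

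**Figure D3:**
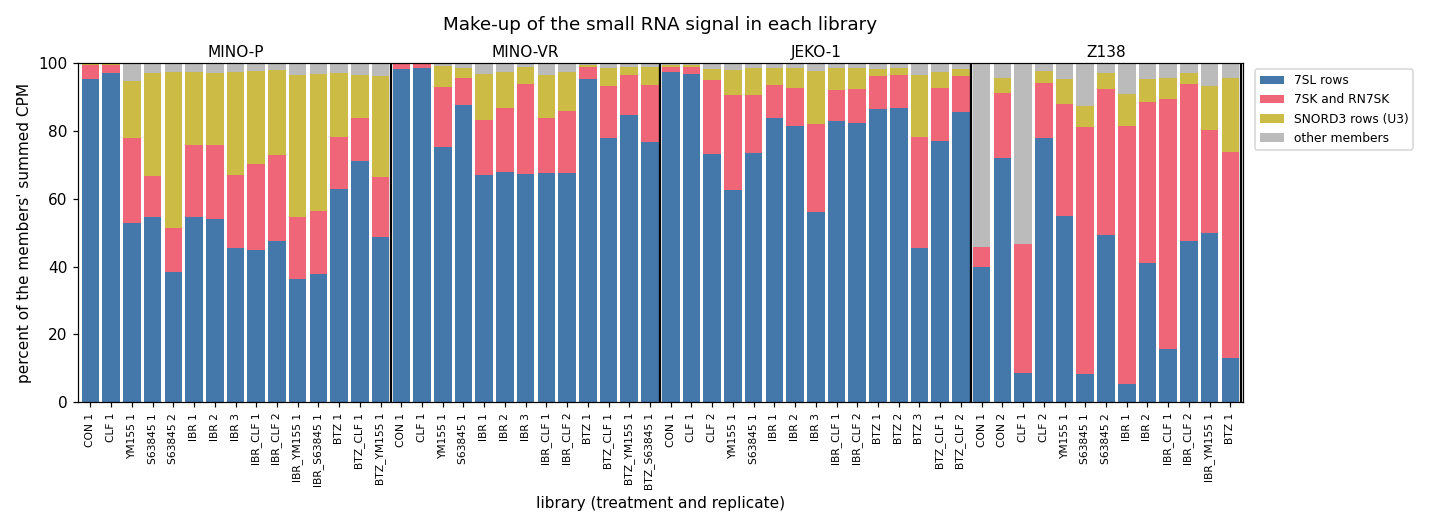
Each bar is 1 library and splits the members' summed CPM into 7SL rows, 7SK with RN7SK, SNORD3 rows and other members, in percent. The 7SL part is 73.2% to 98.6% in the 7 CON and CLF libraries outside Z138, and the SNORD3 part is largest in treated MINO-P.

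The make-up of the signal was tied to culture and treatment. SNORD3A took 0.112% of the members' CPM in MINO-P CON, 21.3%, 20.4% and 29.7% in its IBR libraries and 41.3% in IBR_YM155. In JEKO-1 it took 0.555% in CON, 5.05%, 5.94% and 15.4% in IBR and 2.18%, 2.07% and 18.0% in BTZ. The ratio of SNORD3A to RN7SK was 2.33, 2.37 and 3.27 in MINO-P IBR, 1.12, 1.25 and 1.21 in JEKO-1 IBR, and 0.149 and 0.227 in Z138 IBR. The 3 ranges did not overlap. For MINO-VR IBR it was 2.07, 2.87 and 0.385, which overlapped the JEKO-1 and MINO-P ranges and lay above the Z138 values. In Z138, 7SK with RN7SK took 76.2% and 47.6% in IBR and 60.8% in BTZ.

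Libraries of 1 group differed widely. Some library names match up to a final letter. In the 8 such pairs outside Z138 the summed level differed 1.02 to 1.86 times, and the library with the letter was the lower in each. In the 5 such Z138 pairs the difference was 3.57 to 87.2 times, and RN7SL1 was higher in the library with the letter in 5 of 5. In the 4 groups of 3 libraries, replicate 3 was the lowest, and the highest was 9.04 times (JEKO-1 IBR), 10.1 times (JEKO-1 BTZ), 14.6 times (MINO-P IBR) and 94.8 times (MINO-VR IBR) above it. The mitochondrial share was also lowest in replicate 3 of each, for example 8.51% against 15.6% and 17.5% in MINO-P IBR. Whether that share has a part in the gap was not tested.

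**Figure D4:**
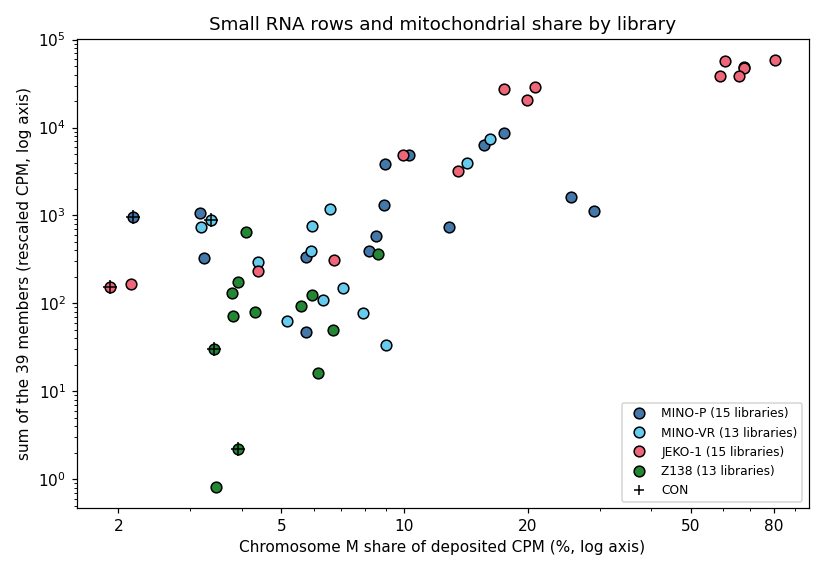
Each point is 1 library, with the Chromosome M share of the deposited CPM on a log x axis and the summed rescaled CPM of the members on a log y axis; crosses mark CON. Libraries with a share above 50% are JEKO-1 libraries at 38804 CPM or more, and MINO-P IBR_S63845 holds 1137 CPM at a share of 29.04%.

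BTZ was compared with CON in a limma fit over all 56 libraries with treatment, culture and library series as terms. Of the 39 members 8 rose and none fell, where 4.87% of the 17203 genes tested were called higher. The rows were SNORD3A (log2 fold change 5.16, SE 1.23, adjusted p = 0.00213), 7SK (4.90, SE 1.16, adjusted p = 0.00193) and RN7SK (4.10, SE 1.16, adjusted p = 0.00972). SNORD3B-1 (1.94), RN7SKP71 (1.67) and the identical U1 rows RNVU1-29, RNU1-2 and RNU1-4 (1.82 each) also passed, at adjusted p between 0.0366 and 0.0468, and were named after their values were seen. The 8 rows thus cover 7SK RNA, a 7SK pseudogene, U3 and U1. The 3 U1 rows, on the plus strand of chromosome 1, held equal values in 54 of 56 libraries. The other U1 rows of identical sequence did not pass. The 8 calls are therefore fewer separate results when set beside the 4.87%. Adding 1 before taking log2 makes the changes of low rows look smaller than they are. RN7SL1 had a value of 1.91 (SE 1.30, adjusted p = 0.336) and RN7SL2 of 2.28, and did not pass. The members' median was 1.35, beside -0.17 for all genes. This fit averages BTZ over cultures that moved in opposite directions. The summed level under BTZ was 223 times CON in JEKO-1 and 40.0 times in Z138, but 0.345 times in MINO-P and 0.330 times in MINO-VR. In MINO-P and MINO-VR, RN7SK was lower in BTZ than in CON, while 7SK and SNORD3A were higher. The 7SK row was 0.640 times RN7SK in both CON libraries, and 2.01 (MINO-P) and 1.75 (MINO-VR) times in BTZ. How reads were divided between these near-identical rows is not known, so neither row alone shows whether 7SK RNA moved there.

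The BTZ count rested on few libraries: leaving out JEKO-1 CON replicate 1 gave 2 calls. Leaving out either of BTZ replicates 1 and 2 of JEKO-1, or either Z138 CON replicate, gave 3, and leaving out all JEKO-1 libraries gave 1. SNORD3A passed under each of 24 alternatives (adjusted p at most 0.0299), while 7SK (adjusted p = 0.114) and RN7SK (0.283) did not without JEKO-1, and RN7SL1 turned to -0.33 there.

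**Figure D5:**
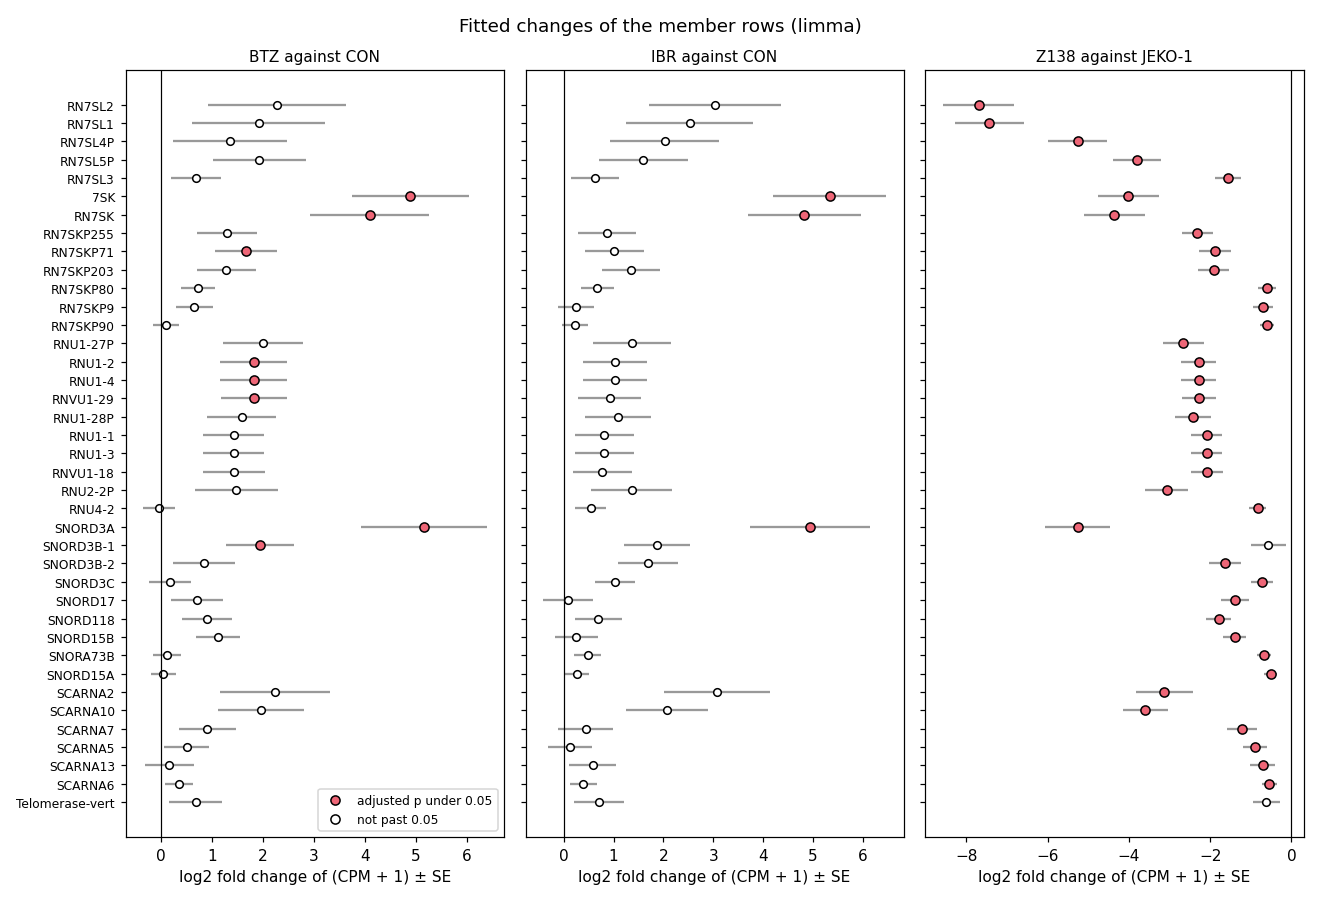
Points are limma log2 fold changes of (CPM + 1) with standard errors for the 39 members, in BTZ against CON, IBR against CON and Z138 against JEKO-1; filled points have an adjusted p under 0.05. SNORD3A, 7SK and RN7SK stand apart under both drugs at 4.10 to 5.34, and in the panel of Z138 against JEKO-1 RN7SL2 is lowest at -7.70.

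In the same fit, IBR against CON raised 3 of the 39 members, where 4.37% of genes were called higher. These were 7SK (log2 fold change 5.34, SE 1.14, adjusted p = 0.00164), SNORD3A (4.94, SE 1.21, adjusted p = 0.00552) and RN7SK (4.83, SE 1.14, adjusted p = 0.00417). SCARNA2 had a value of 3.07 (SE 1.06, adjusted p = 0.0507), RN7SL2 of 3.03 and RN7SL1 of 2.53 (adjusted p = 0.216). The BTZ and IBR comparisons share their CON libraries. 7SK passed under each of 29 alternatives, with an adjusted p of at most 0.0312. SNORD3A did not pass in 3 of 29 (adjusted p up to 0.263, without JEKO-1) and RN7SK in 2 of 29 (up to 0.0623, without Z138). The count was 5 without MINO-VR CON replicate 1, 1 when JEKO-1 CON replicate 1 was left out, and 6 without Z138 IBR replicate 2 or without replicate 3 of IBR in JEKO-1, MINO-VR or MINO-P.

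Z138 alone, with CON and IBR in the same series, gave a direct check in 13 libraries. Of 10 members tested none passed, with 0% of 14120 genes called. The unadjusted limma p was under 0.05 for 5 of the 10 members and for 2748 of the 14120 genes. RN7SK had a log2 value of 4.92 (SE 1.03, adjusted p = 0.105) and 7SK of 4.71 (SE 1.26, adjusted p = 0.117). Without Z138 IBR replicate 2, 6 members passed, in a fit where the lone IBR library is assumed to vary like the other groups. With the final letter of the library name as a block, 1 member passed.

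The remaining treatment comparisons called no member. In YM155 against CON 1.15% of genes were called, and no member had an unadjusted p under 0.05; 6 of the 39 values were above 0. In S63845 against CON 0% of genes were called, with 4 members at an unadjusted p under 0.05: SNORD3C (1.15), 7SK (3.25), RN7SK (2.89) and SNORD3A (2.99). Among all 17203 genes, 428 were under 0.05 unadjusted there. In CLF against CON 0% of genes were called, and no member had an unadjusted p under 0.05. IBR_CLF against IBR called 0% of genes and no member, with none under 0.05 unadjusted, and values between -0.35 and 0.58. BTZ_CLF against BTZ called 0.0698% of genes and no member, with RN7SKP90 at an unadjusted p = 0.0016 in limma. Adding CLF was thus not seen to change the members beyond the spread between libraries, although JEKO-1 held 56930.0 and 38844 CPM in IBR_CLF and 29159.9 CPM at most in IBR.

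Between cultures, MINO-VR against MINO-P called SNORD3A lower (log2 fold change -2.98, SE 0.80, adjusted p = 0.0121) and no other member, beside 3.12% of genes called lower. It was lower under each of 40 alternatives, with adjusted p at most 0.043. Of the 39 values, 4 were above 0. The count rises to 2 without any 1 of 7 libraries (MINO-VR CON replicate 1, MINO-VR CLF replicate 1, MINO-VR IBR replicates 1 and 2, MINO-P BTZ replicate 1, MINO-P YM155 replicate 1 and MINO-P IBR replicate 3).

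JEKO-1 against MINO-P called 21 of the 39 members higher, where 22.8% of genes were called higher. Without JEKO-1 only 25 of the 39 rows meet the rule, so the 21 are a description. RN7SL2 (log2 fold change 3.55, SE 1.00, adjusted p = 0.00392), RN7SL1 (3.47, SE 0.96, adjusted p = 0.00334) and RN7SL4P (3.36, SE 0.83, adjusted p = 0.00103) had the largest values. This is an average over treatments, and in CON RN7SL1 was 56.5 CPM in JEKO-1 and 406 CPM in MINO-P. Without the 6 libraries above 50% mitochondrial share, 10 members were called higher and 1 lower, and RN7SL2 (adjusted p = 0.0595) and RN7SL1 (0.0532) did not pass. These counts are not set beside the share of all genes called in that fit.

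Z138 against JEKO-1 called 37 of the 39 members lower, where 28.8% of genes were called lower. RN7SL2 (log2 fold change -7.70, SE 0.88, adjusted p = 3.43e-10), RN7SL1 (-7.44, SE 0.85, adjusted p = 2.85e-10) and RN7SL4P (-5.27, SE 0.73, adjusted p = 3.61e-08) had the largest falls. SNORD3A (-5.26) and 7SK (-4.01) fell too. SNORD3B-1 (-0.57, adjusted p = 0.279) and Telomerase-vert (-0.62, adjusted p = 0.118) did not pass. In untreated cells RN7SL1 kept this order, with 56.5 CPM in JEKO-1 against 0.523 and 12.8 CPM in Z138. Other rows did not: SCARNA2 was 0.271 CPM in JEKO-1 and 0.679 and 1.05 CPM in Z138, and the JEKO-1 values of 7SK (0.866 CPM) and SNORD3A (0.844 CPM) lay between the Z138 libraries. The rule chose rows through JEKO-1 levels, so the 37 are a description.

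The HK against MCL series term called no member, with 3.24% of genes called. The unadjusted limma p was under 0.05 for 8 of the 39 members and for 3007 of the 17203 genes. Whether BTZ or IBR acted differently in JEKO-1 than in Z138 was fitted as an interaction over these cultures. BTZ called 0% of 16501 genes and no member (11 at an unadjusted p under 0.05), and IBR 0% and no member (16 unadjusted). Among all 16501 genes, 1303 (BTZ) and 604 (IBR) had an unadjusted p under 0.05. The members' median differences, JEKO-1 minus Z138, were 2.47 and 2.12 on the log2 scale. For BTZ, 8 members passed without the 6 libraries above 50% mitochondrial share, and 2 without JEKO-1 BTZ replicate 3.

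Many members lie inside other genes, and 16 lie inside a row of the table on the same strand. SCARNA10 lies in NCAPD2, a condensin subunit gene, SNORD15A and SNORD15B in RPS3, a ribosomal protein gene, SNORD118 in TMEM107, SCARNA5 and SCARNA6 in ATG16L1, and SNORA73B in RCC1 and SNHG3. The pairs of 7SK with RN7SK and of Telomerase-vert with TERC, which name the same RNA, were not counted. RNU1-2 and RNU1-4, of identical sequence, each made a pair with CROCC, and SNORA73B made a pair with each of its hosts. In BTZ against CON the member's log2 value was above that of its host in 16 of 16 tested pairs. Of the 39 members 38 had a value above 0 there, so such counts are a description. The host was called lower in 5 pairs and higher in none. SCARNA10 had a value of 1.95 (adjusted p = 0.101) where NCAPD2 fell by 1.82 (adjusted p = 4.53e-05), and RNU1-2 rose by 1.82 where CROCC fell by 1.54. In IBR against CON all 39 members had a value above 0, and the member was above its host in 14 of 16 pairs, with no host called. In Z138 against JEKO-1 no member had a value above 0, and the member was above its host in 1 of 16 pairs. The host was called higher in 6 pairs and lower in 4. SCARNA10 fell by 3.60 while NCAPD2 had a value of -0.03 (adjusted p = 0.909), and SNORD118 fell by 1.80 where TMEM107 rose by 0.81. SNORD15B fell by 1.40 and its host RPS3 fell by 1.11, and RNU2-2P fell by 3.07 and its host WDR74 fell by 0.95. The difference between member and host was not tested.

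The proteins that bind or make these RNAs were read from lists, chosen with earlier results of these data known. Among all 17203 genes tested, 13.8% were called lower under BTZ and 6.39% under IBR. Of 7 genes of the 7SK particle, which include LARP7, MEPCE, HEXIM1 and CDK9, none passed in BTZ or IBR against CON, with HEXIM1 at 0.30 and -0.01 and LARP7 at -0.16 and -0.14. Of 17 snoRNP protein genes, 6 fell and 1 rose under BTZ (median -0.64, all genes -0.17) and 9 fell under IBR (median -0.78, all genes -0.002). FBL (fibrillarin, the methylase of box C/D particles) fell by 1.21 and 0.81, DKC1 (dyskerin, the pseudouridine synthase of box H/ACA particles) by 1.42 and 1.47, NHP2 by 1.47 and 1.07, and NOP56 by 1.41 under IBR. Under the same drugs SNORD3A rose.

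Of 16 Sm and LSm genes, 4 fell under BTZ, with LSM4 falling by 1.64, while 2 fell and 1 rose under IBR. Of 19 genes of snRNP assembly and export, 5 fell and 1 rose under BTZ, and 6 fell under IBR; WDR77, a partner of the Sm-protein methylase PRMT5, fell by 1.17 and 1.57, and GEMIN5, the snRNA-binding part of the SMN complex, by 1.34 and 1.38. Of 20 tested genes of the nuclear exosome and RNA trimming, 6 fell under BTZ and 4 under IBR, among them EXOSC5 by 2.12 and 1.54. Of 24 genes of snRNA transcription and 3′ end formation, 3 fell under BTZ (SNAPC4 by 1.67), a share near that of all genes, and none passed under IBR. Of 6 signal recognition particle proteins, SRP14 rose by 0.52 under BTZ and none passed under IBR. Of 21 snoRNA host genes, 2 rose and 2 fell under BTZ (HSPA8 rose by 1.46 and NCL fell by 1.20), and 1 rose and 2 fell under IBR (SNHG7 rose by 2.02). These values are from limma with adjusted p under 0.05.

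Other short RNAs outside the 4 classes were read beside them. RPPH1, the RNA of ribonuclease P, was 0.271 CPM in JEKO-1 CON, 83.3, 74.6 and 10.4 CPM in IBR, 121, 107 and 4.28 CPM in BTZ and 678 CPM in BTZ_CLF replicate 1. It was at or under 21.8 CPM in MINO-P and MINO-VR. Its fit values of 2.07 for BTZ and 2.32 for IBR did not pass (adjusted p = 0.147 and 0.125). RMRP, the RNA of ribonuclease MRP, was above 10 CPM in 1 library, at 110.1 CPM in JEKO-1 BTZ_CLF replicate 1.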

How the data were processed

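RNA was extracted with the RNeasy Mini kit and sequenced in read pairs, per the labels' protocols and the series' design text. The authors deposited 1 table of log2(CPM + 1) values for 56 libraries, made with Partek on hg38 per the submitters' processing notes; versions, the counter and its handling of multiple matches and strand are not given in the sources used here. Values were turned back to CPM, 7875 log2 values smaller than 1e-06 were taken as 0, 15 mitochondrial rows and 1 unnamed row were left out (the latter at most 0.000773% of a library), and each library was rescaled. Depth was recovered from steps in low values, but 76.7% to 90.5% of these were whole reads within 0.05, so no count test was run.

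The test took genes that reached 1 CPM in at least 2 libraries and was run with limma 3.58.1 (R 4.3.3) on log2(CPM + 1), with treatment, culture and library series as terms and Benjamini-Hochberg adjustment over all genes tested at 0.05. Z138 alone, and JEKO-1 with Z138 for the interactions, had fits of their own. The fit was tested on simulated data. Tables and plots used Python 3.11.15, pandas 2.3.3, numpy 2.4.6 and matplotlib 3.10.9. Members and gene lists were chosen with earlier results of these data known. Named members were the 4 highest of each class, up to 3 called in each direction, a list of well known short RNAs, and the rows beside the threshold; others were named after their values were seen. Alternatives changed the scaling, pseudocount, filter, weights, terms and libraries. Some sequences are not reported here.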

Additional observations from a re-analysis of the deposited data

Results flagged for a closer look

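The summed level of the 39 rows moved in opposite directions between cultures under 4 treatments, and these differences were not tested. Ratios are the mean over libraries of a treatment divided by that of CON in the same culture. For BTZ the ratio was 223 in JEKO-1 and 40.0 in Z138, but 0.345 in MINO-P and 0.330 in MINO-VR. For CLF it was 1.31 in JEKO-1, 1.11 in MINO-P and 0.834 in MINO-VR, all within the 1.02 to 1.86 times by which paired libraries of 1 group differed outside Z138; in Z138 it was 2.25, with libraries that overlapped CON. For YM155 it was 2.03 in JEKO-1 and 4.93 in Z138, but 0.0487 in MINO-P and 0.0377 in MINO-VR. For S63845 it was 179 in JEKO-1, 7.002 in Z138 and 0.0708 in MINO-VR, and in MINO-P it was 0.879, with libraries on both sides of CON. The Z138 ratios rest on CON libraries of 2.21 and 30.2 CPM: against each alone, BTZ was 293 and 21.5, YM155 36.1 and 2.65, and S63845 51.3 and 3.76. Most of these groups hold 1 library, and for the MINO cultures YM155 and S63845 against CON cannot be told apart from the library series.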

How the results depend on the processing

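Over 163 alternatives that left out no single library, 137 gave a count within 1.5 times the reported one and 26 did not. Of the 137, 3 concern the number of members under other rules, and the rest concern the number of members called. Counts that stayed at 0 are included, 13 of 13 for each of YM155, S63845 and CLF against CON and IBR_CLF against IBR. For BTZ against CON 6 of 13 stayed within that range. For BTZ against CON the 8 calls became 3 with no filter, 2 with array weights, 4 with 8 pairs averaged, 5 with no series term, 1 without JEKO-1, 3 without the 6 libraries over 50% mitochondrial and 2 without Z138. For RN7SL1: BTZ against CON, the value turned to -0.33 without JEKO-1, and the cause was not tested. For IBR against CON the 3 calls became 8 as deposited, 7 at a pseudocount of 0.25, 33 with array weights, 12 with no series term and 13 without the 6 libraries. For BTZ_CLF against BTZ, 0 became 1 with JEKO-1 and Z138 only. For MINO-VR against MINO-P, 1 became 2 as deposited, 2 at a pseudocount of 0.25, 11 with array weights, 6 with the 9 shared treatments, 5 without JEKO-1 and 2 without the 6 libraries. For JEKO-1 against MINO-P, 21 became 12 with array weights and 11 without the 6 libraries. For HK against MCL library series, 0 became 1 without JEKO-1. For BTZ against CON, JEKO-1 minus Z138, 0 became 5 with array weights and 8 without the 6 libraries, and for IBR against CON, JEKO-1 minus Z138, 0 became 1 with array weights. The causes were not tested. Counts under alternative fits, here and above, are not set beside the share of all genes called in the same fit. They show how far the member counts moved, and not whether the members moved more than other genes.

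Leaving out 1 library at a time gave 2 to 9 calls for BTZ against CON, 1 to 6 for IBR against CON, 0 to 1 for BTZ_CLF against BTZ, 1 to 2 for MINO-VR against MINO-P, 16 to 25 for JEKO-1 against MINO-P, 35 to 38 for Z138 against JEKO-1, 0 to 6 for IBR against CON in Z138 and 0 to 2 for BTZ against CON, JEKO-1 minus Z138. The only Z138 BTZ and JEKO-1 CON libraries could not be left out of the interactions. The median of all genes in BTZ against CON was -0.42 as deposited and -0.17 here. The alternatives without JEKO-1, without Z138 and without the 6 libraries were chosen after seeing the data. Replicate numbers were given in accession order and pair nothing. A replicate block on the final letter of the library name, also chosen after seeing the data, gave 1 call in place of 0 for IBR against CON in Z138, 6 for BTZ against CON and 33 for Z138 against JEKO-1, and the same count as reported in the other comparisons.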
